A study of Mus musculus with 6 samples.

Results

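T and NK cell genes were examined in 6 whole tumours grown from NA13, a mouse bladder cancer line for which the series gives high DDR2 expression. A list of 38 genes of T cell and natural killer (NK) cell identity, signalling and effector function was matched by Entrez number to the deposited count table, which holds 15295 genes. There, 31 of the 38 were found, and all 31 passed the filter on low counts, which left 14498 genes for testing. The other 7, Cd3e, Gzmk, Prf1, Ifng, Ncr1, Tbx21 and Cxcr3, are not analysed here. The table holds only genes with at least 1 count in every library, so its rows are not a complete account of weakly expressed genes.

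The labels give 2 groups of 3 tumours. Control tumours came from NA13 cells with a scrambled shRNA, and the others from NA13 cells labelled shDdr2, with an shRNA against the collagen receptor gene Ddr2. Tumours of both groups also received IgG, the strain is given as C57BL/6, and the labels call the tumours xenografts. The labels do not give age, sex, the shRNA sequence or the clone. They leave unsaid whether each tumour had a host animal of its own, so the p-values cover only differences among these samples, which may be technical. The comparison asks whether T and NK cell transcripts differ between the shRNAs.

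T cells recognise antigen through a receptor whose signal is carried into the cell by the CD3 chains and the zeta chain. The coreceptors CD4 and CD8 bind MHC class II and class I and bring the kinase Lck to the receptor, after which Zap70 and the adaptor Lat pass the signal on. Cytotoxic T cells and NK cells kill with granzymes, and regulatory T cells, marked by the transcription factor Foxp3, restrain such responses. In a solid tumour these transcripts come mainly from infiltrating host cells, although several members, such as Il2rg and the TNF receptor family genes, are also used by other cells. In whole tumours, fewer cells of a type and less RNA per cell cannot be told apart.

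Library totals ranged from 15560571 to 19522985 counts. The targeted gene, Ddr2, did not check the labels: in CPM, the count scaled to a TMM-adjusted library size of 1000000, it was 14.5 ± 7.28 in control tumours and 17.5 ± 11.9 in the others (SD, n = 3 each). These levels are of whole tumours and do not give Ddr2 in the NA13 cells alone. Directions below are therefore between libraries as labelled, written control 1 to 3 and shDdr2-labelled 1 to 3. On principal components of all tested genes, shDdr2-labelled 1 stood apart on the first (50.1% of the variance) and control 1 on the second (22.2%). Results are accordingly also given without these libraries.

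The T and NK cell genes varied far more between tumours of a group than between the groups, and most of them were highest in the same-numbered tumour of each group. In 25 of 31 members, number 2 was the highest library of the control group and also of the shDdr2-labelled group, against 8.82% of all genes tested (1278 of 14498). The ranking takes no account of margins, and some of these were within counting error. Txk had 15 and 14 counts in control 2 and 3, and Cd27 had 32 and 26 in shDdr2-labelled 2 and 3. Cd5 was at 13.0 and 12.3 CPM in control 2 and 3. The highest of all 6 libraries was control 2 for 19 members and shDdr2-labelled 2 for 9, which compares with 1539 and 1889 of the 14498 genes. Control 1 was the lowest of the 6 for 19 members, shDdr2-labelled 3 for 5 and shDdr2-labelled 1 for 4. Among the 14498 genes, these libraries were the lowest for 2084, 3198 and 5013, in the same order. The members share their libraries and many share their cells, so these counts are not independent. Nothing in the labels says what a shared number stands for. The count of 25 was the same with DESeq2's size factors, with library totals only and in the deposited log2 values.

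**Figure D1:**
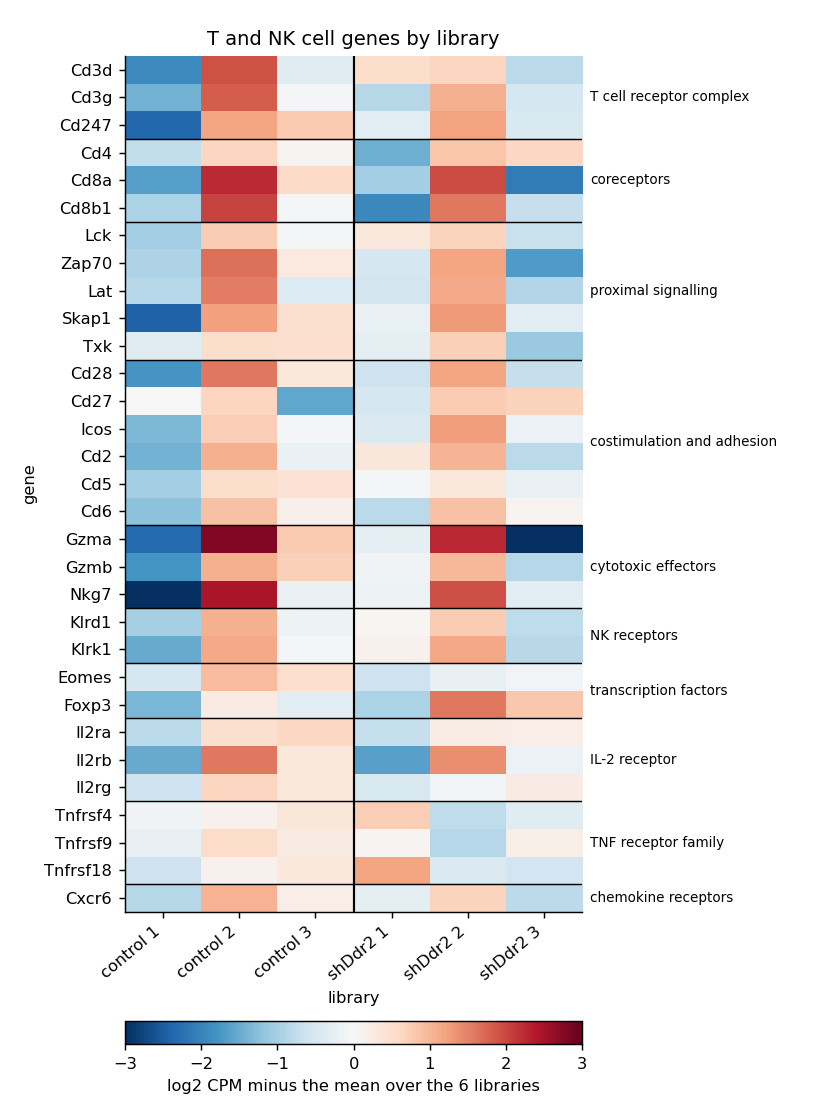
Heat map of log2 CPM minus the gene's mean over the 6 libraries, with the 31 genes as rows grouped by role and the libraries as columns (control left, shDdr2-labelled right); colours saturate at 3 log2 units in either direction. Control 2 and shDdr2-labelled 2 are above the mean in most rows, while the TNF receptor family rows do not show this pattern.

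Genes of the T cell receptor complex were at low but countable levels in all 6 tumours. Cd3g, the CD3 gamma chain (chromosome 9, 44969572 to 44980431, minus strand, GRCm38), had 11, 93 and 24 counts in control 1 to 3 and 12, 68 and 19 in shDdr2-labelled 1 to 3. In CPM these are 0.593, 5.56 and 1.51 in control tumours and 0.867, 3.31 and 1.09 in the others. Number 2 was highest in each group, and its exact 95% Poisson interval (4.485 to 6.81 CPM in control 2, 2.57 to 4.20 CPM in shDdr2-labelled 2) did not reach those of its group's other libraries, the highest of which ended at 2.24 CPM. Such intervals cover counting error only. The groups overlapped, with a log2 fold change of -0.52 (SE 0.87, 95% interval -2.55 to 1.52).

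Cd3d, the CD3 delta chain (chromosome 9, 44981786 to 44987339, plus strand), lies head to head with Cd3g, with 1355 bp between the gene models. It was at 0.324, 4.54 and 0.943 CPM in control 1 to 3 and at 1.73, 1.90 and 0.689 CPM in shDdr2-labelled 1 to 3. Here shDdr2-labelled 1 was close to shDdr2-labelled 2, unlike in Cd3g, and the log2 fold change was -0.42 (SE 0.90). Cd247, the zeta chain, had 2, 21 and 15 counts in control 1 to 3 and 6, 26 and 7 in shDdr2-labelled 1 to 3, which places control 3 nearer to control 2 than for the CD3 chains. Its log2 fold change was -0.09 (SE 0.84).

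All 3 coreceptor genes were highest in number 2 of both groups, and the CD8 genes parted most from Cd4 in shDdr2-labelled 3. The CD8 alpha chain gene Cd8a (chromosome 6, 71373427 to 71379173) had 0.701, 10.3 and 3.27 CPM in control 1 to 3 and 1.08, 8.57 and 0.517 CPM in shDdr2-labelled 1 to 3. Number 2 was thus highest in both groups, with a 14.7-fold range among control tumours and a 16.6-fold range among the others. Cd8b1, the CD8 beta chain, was at 0.431, 3.41 and 0.817 CPM and at 0.217, 2.48 and 0.517 CPM in the same order. The log2 fold changes were -0.47 (SE 1.18) for Cd8a and -0.49 (SE 1.01) for Cd8b1, both with overlapping groups. Cd4, the coreceptor of helper and regulatory T cells (chromosome 6, 124864692 to 124888221), had levels of 1.67, 4.36 and 2.95 CPM in control 1 to 3 and 1.01, 4.92 and 4.25 CPM in shDdr2-labelled 1 to 3. In shDdr2-labelled 3, Cd4 was near its highest level while both CD8 genes were at 0.517 CPM, from 9 counts each.

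The bases just before the start of 5 members are shown, chosen by where they peaked. Cd3g, Cd3d, Cd8a and Gzma all peaked in number 2 of both groups, while Eomes, described further on, did not. These classes are not firmly apart. In the shDdr2-labelled group, the Poisson intervals of numbers 2 and 3 overlap for Eomes (4.05 to 6.03 and 4.46 to 6.73 CPM). Those of numbers 2 and 1 overlap for Cd3d (1.35 to 2.60 and 1.11 to 2.58 CPM). Each sequence is the 250 bases before the RefSeq start, on the strand of the gene and from 5′ to 3′, in build GRCm38.p6. The windows are chr9:44980432-44980681 (Cd3g, minus), chr9:44981536-44981785 (Cd3d, plus), chr6:71373177-71373426 (Cd8a, plus), chr13:113100982-113101231 (Gzma, minus) and chr9:118477939-118478188 (Eomes, plus). Capitals mark matches, on either strand, to the 3 motifs searched, which are TGTGGT (Runx), GGAAGT (Ets) and GGTGTGA (T-box).
Cd3g: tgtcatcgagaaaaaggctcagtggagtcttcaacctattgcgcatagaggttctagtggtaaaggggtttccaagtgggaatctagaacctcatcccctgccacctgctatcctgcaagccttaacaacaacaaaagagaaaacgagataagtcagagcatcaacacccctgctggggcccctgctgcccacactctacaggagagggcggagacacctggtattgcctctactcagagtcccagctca
Cd3d: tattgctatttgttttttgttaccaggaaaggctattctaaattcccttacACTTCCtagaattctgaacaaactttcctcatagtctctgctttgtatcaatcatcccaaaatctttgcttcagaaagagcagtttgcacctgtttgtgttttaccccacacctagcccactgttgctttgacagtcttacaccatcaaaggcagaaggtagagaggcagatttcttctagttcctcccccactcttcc
Cd8a: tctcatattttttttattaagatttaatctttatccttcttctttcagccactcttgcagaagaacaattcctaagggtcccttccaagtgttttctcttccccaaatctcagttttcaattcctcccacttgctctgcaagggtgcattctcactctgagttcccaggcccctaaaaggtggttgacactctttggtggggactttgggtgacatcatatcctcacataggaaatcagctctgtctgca
Gzma: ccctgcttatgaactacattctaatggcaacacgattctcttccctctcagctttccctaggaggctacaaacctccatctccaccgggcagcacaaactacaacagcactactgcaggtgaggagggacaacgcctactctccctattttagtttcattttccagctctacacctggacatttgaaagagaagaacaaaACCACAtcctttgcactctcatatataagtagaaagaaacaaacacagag
Eomes: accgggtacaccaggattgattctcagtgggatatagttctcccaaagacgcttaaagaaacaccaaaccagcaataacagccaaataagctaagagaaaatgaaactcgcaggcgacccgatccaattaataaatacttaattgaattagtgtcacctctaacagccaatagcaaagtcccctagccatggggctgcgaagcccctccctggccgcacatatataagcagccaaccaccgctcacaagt
Cd3g, Cd8a and Eomes held no match. An Ets match stood 199 bases before the start of Cd3d, and a Runx match 50 bases before the start of Gzma. A RefSeq window was found for 22 of the 31 members. The Runx letters were in 7 of these 22 windows, against 14.2% of all 27025 windows of this length, the Ets letters in 7 against 20.0%, and the T-box letters in 1, that of Nkg7, against 3.31%. Runx and T-box matches can share bases, but each printed window holds at most 1 match. A match is a description of the sequence, not a site of binding.

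All 5 genes of proximal receptor signalling were highest in number 2 of each group. Lck, the kinase carried by the coreceptors, was the most abundant of them, at 1.83, 6.39 and 3.65 CPM in control 1 to 3 and 4.69, 5.99 and 2.35 CPM in shDdr2-labelled 1 to 3. Zap70, the kinase that binds the phosphorylated CD3 and zeta chains, was at 0.485, 2.93 and 1.13 CPM and at 0.650, 2.09 and 0.287 CPM in the same order. Lat, the membrane adaptor that Zap70 phosphorylates, was at 0.701, 3.64 and 0.943 CPM and at 0.867, 2.78 and 0.689 CPM. For Lck the lowest of the shDdr2-labelled tumours was number 3, as for Zap70 and Lat. The adaptor Skap1 and the Tec family kinase Txk had 2 to 29 and 5 to 21 counts per library, and Txk was the only one of the 5 in which the lowest and highest libraries of neither group had separate Poisson intervals. Log2 fold changes ran from -0.55 (SE 0.86) for Zap70 to 0.14 (SE 0.55) for Lck.

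The 6 genes of costimulation and adhesion were likewise highest in number 2 of both groups. Cd5, an inhibitory scavenger receptor family protein of T cells and some B cells, was at 4.42, 13.0 and 12.3 CPM in control 1 to 3 and at 8.74, 11.2 and 7.81 CPM in shDdr2-labelled 1 to 3. It varied less than its neighbour Cd6, a related receptor whose gene lies 50339 bp away and which was at 0.485, 2.09 and 1.26 CPM and at 0.650, 2.09 and 1.21 CPM. Icos, the costimulatory receptor of activated T cells, was at 0.809, 3.47 and 2.01 CPM and at 1.52, 4.92 and 1.84 CPM. Its higher peak was thus in the shDdr2-labelled group. That of Cd28, the main costimulatory receptor of T cells, was in the control group (0.162, 1.67 and 0.691 CPM against 0.361, 1.27 and 0.344 CPM). For both genes the Poisson intervals of the peaks overlap, and those of Cd28 had 28 counts in control 2 and 26 in shDdr2-labelled 2. Cd2, the CD48-binding adhesion receptor, was at 0.485, 2.75 and 1.13 CPM and at 1.66, 2.63 and 0.746 CPM. Cd27, a TNF receptor family costimulator, had its lowest level in control 3 (0.314 CPM), not in a number 1 library. Log2 fold changes of the 6 ran from -0.31 (SE 0.86) for Cd28 to 0.48 (SE 0.62) for Cd27, 4 of them above 0.

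Cytotoxic effector genes had the widest spread of any role by the median, with a within-group SD of 1.81 log2 units against 0.97 for all 31 members. This median over 3 genes is the value of Nkg7, which had 1 count in control 1. Gzma had 2.43 and Gzmb 1.21, where Cd8a of the coreceptors had 1.91. Gzma, granzyme A (chromosome 13, 113093825 to 113100981), had 8, 246 and 59 counts in control 1 to 3 and 25, 214 and 4 in shDdr2-labelled 1 to 3. This is 0.431, 14.7 and 3.71 CPM in control tumours and 1.81, 10.4 and 0.230 CPM in the others, a 34.1-fold and a 45.4-fold range. Gzma was thus highest in number 2 of both groups, and its lowest value was in shDdr2-labelled 3. Nkg7, a granule membrane protein of cytotoxic lymphocytes (chromosome 7, 43437073 to 43438249), had 1, 66 and 10 counts in control 1 to 3 and 9, 56 and 10 in shDdr2-labelled 1 to 3. With 1 count, its level in control 1 has a Poisson interval of 0.00137 to 0.301 CPM, so the range of Nkg7 among control tumours is poorly known. Gzmb, granzyme B (chromosome 14, 56258838 to 56262260), was at 0.809, 5.86 and 4.59 CPM and at 2.60, 5.603 and 1.55 CPM, with control 3 near control 2. The groups overlapped in all 3 genes, with log2 fold changes of -0.58 (SE 1.37), -0.20 (SE 1.18) and -0.20 (SE 0.76) for Gzma, Nkg7 and Gzmb.

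**Figure D2:**
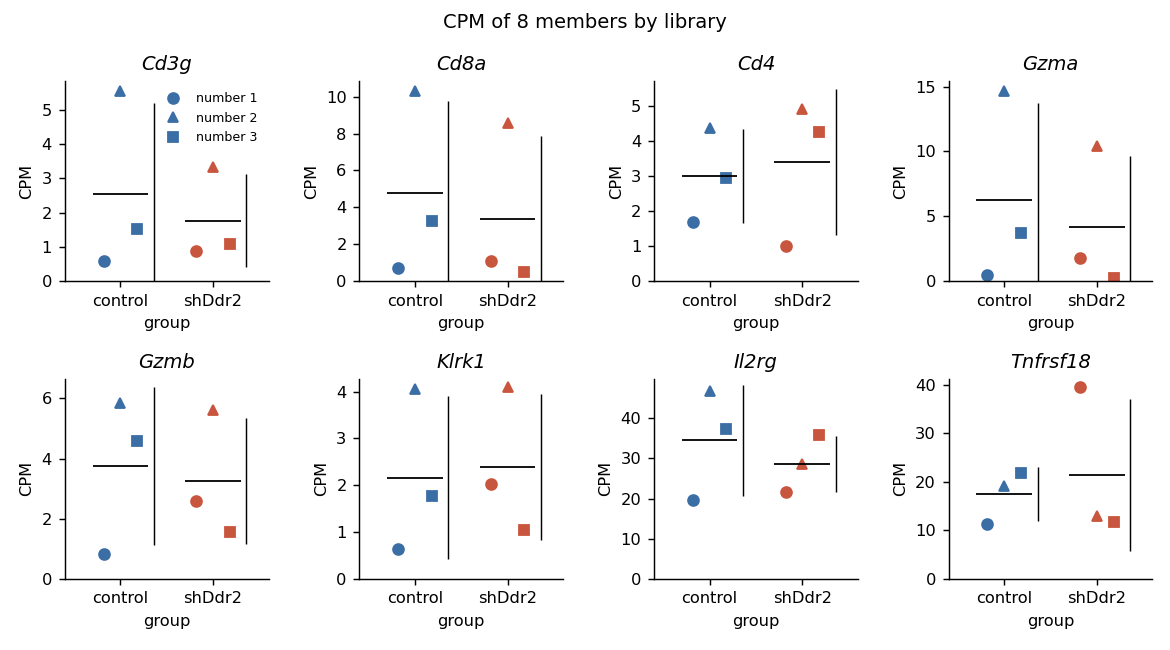
CPM of 8 members by group, with marker shapes for replicate numbers 1 to 3, a horizontal line at the group mean and a vertical line of 1 SD to either side (cut at 0). For Cd8a and Gzma the number 2 tumours of both groups stand above the rest, whereas for Tnfrsf18 shDdr2-labelled 1 is highest at 39.6 CPM.

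The NK receptor members Klrk1 and Klrd1 followed the T cell genes. Klrk1, which encodes the activating receptor NKG2D of NK and CD8 T cells, was at 0.647, 4.06 and 1.76 CPM in control 1 to 3 and at 2.02, 4.09 and 1.03 CPM in shDdr2-labelled 1 to 3. Klrd1, which encodes CD94, was at 0.971, 4.06 and 1.76 CPM and at 2.02, 3.31 and 1.15 CPM. In both genes number 2 was highest in each group, and in the shDdr2-labelled group number 3 was lowest. The log2 fold changes were 0.15 (SE 0.75) and -0.06 (SE 0.63). Both receptors are carried by T cells as well. Klrb1c, which encodes the NK1.1 marker, belongs to a second list of T and NK genes and was named after its values were seen. It was at 0.324, 1.49 and 0.880 CPM and at 0.217, 1.07 and 0.631 CPM. Klrg1 of the same second list, also named after its values were seen, did not follow. It was at 0.162, 0.418 and 0.629 CPM and at 1.08, 0.877 and 0.172 CPM, highest in control 3 and shDdr2-labelled 1. Cxcr6, a chemokine receptor of tissue-resident and effector lymphocytes, was at 1.62, 6.03 and 3.39 CPM and at 2.46, 4.68 and 1.72 CPM, with a log2 fold change of -0.31 (SE 0.59).

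Foxp3 and Eomes had the lowest p-values among the members, without passing the test. Foxp3, the factor of regulatory T cells (chromosome X, 7573644 to 7595245), had 4, 11 and 7 counts in control 1 to 3 and 4, 34 and 17 in shDdr2-labelled 1 to 3. The shDdr2-labelled tumours 2 and 3 were above every control tumour, while shDdr2-labelled 1 was within their range. The means were 0.438 ± 0.221 and 0.974 ± 0.684 CPM (SD, n = 3 each). edgeR gave a log2 fold change of 1.18 (SE 0.70, 95% interval -0.47 to 2.83; unadjusted p 0.136, adjusted p 1.00). This stayed above 0 without any 1 library, from 0.56 without shDdr2-labelled 2 to 1.59 without control 2 and likewise without shDdr2-labelled 1. Eomes, a T-box factor of CD8 and NK cell differentiation (chromosome 9, 118478212 to 118486132), had levels of 4.05, 10.99 and 8.23 CPM in control 1 to 3 and 3.75, 4.97 and 5.51 CPM in shDdr2-labelled 1 to 3. Control 2 and 3 were above every shDdr2-labelled tumour, while control 1 was among them. Its log2 fold change was -0.71 (SE 0.42, 95% interval -1.70 to 0.28; unadjusted edgeR p 0.137, adjusted p 1.00), and ran from -1.004 without control 1 to -0.37 without control 2. Without shDdr2-labelled 1, Foxp3 was under an unadjusted edgeR p of 0.05, as were 3.35% of all genes on the higher side, and so was Tnfrsf4 (-0.69), as were 3.61% on the lower side. Their adjusted p was 0.705. Without control 1, Eomes was under an unadjusted edgeR p of 0.05, as were 0.485% of all genes on the lower side, with an adjusted p of 1.00. On the higher side there were 0 members, against 0.846% of all genes. Per kilobase of exon, Eomes averaged 1.505 CPM over the 6 libraries and Cd3g 0.659 CPM.

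The 3 chains of the interleukin 2 receptor differed in how they varied. Il2rb, the beta chain of T and NK cells, was at 0.863, 7.35 and 3.08 CPM in control 1 to 3 and at 0.794, 6.48 and 2.18 CPM in shDdr2-labelled 1 to 3. It ranged 8.52-fold and 8.16-fold within the groups and peaked in number 2, like the T cell receptor genes. Il2ra, the alpha chain of activated and regulatory T cells, was at 2.64, 6.45 and 7.10 CPM and at 2.82, 5.36 and 5.34 CPM. Il2rg, the common gamma chain shared by several cytokine receptors and used by most leukocytes, was at 19.6, 46.8 and 37.3 CPM and at 21.6, 28.6 and 35.7 CPM. For both of these genes number 1 was lowest in each group, and number 2 was the highest in only 1 of the groups. Log2 fold changes were -0.24 (SE 0.91) for Il2rb, -0.26 (SE 0.47) for Il2ra and -0.27 (SE 0.35) for Il2rg.

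Tnfrsf18, Tnfrsf4 and Tnfrsf9, the other costimulatory TNF receptor family members besides Cd27, did not peak in number 2 of both groups. The GITR gene Tnfrsf18 (chromosome 4, 156026164 to 156028895) had 11.3, 19.2 and 21.9 CPM in control 1 to 3 and 39.6, 13.0 and 11.7 CPM in shDdr2-labelled 1 to 3. Tnfrsf4, which encodes OX40 and lies 9552 bp away, was at 10.03, 11.8 and 13.9 CPM and at 18.1, 6.38 and 8.44 CPM. Both had their highest value in shDdr2-labelled 1, the highest of the 6 libraries for no other member. Tnfrsf9, which encodes 4-1BB, was at 16.9, 28.6 and 23.8 CPM and at 20.7, 10.8 and 22.2 CPM, with its lowest value in shDdr2-labelled 2, the library in which 9 other members peaked. Log2 fold changes were 0.29 (SE 0.52), -0.12 (SE 0.42) and -0.37 (SE 0.34) for Tnfrsf18, Tnfrsf4 and Tnfrsf9. Without number 1 of both groups they were -0.75 for Tnfrsf18 and -0.80 for Tnfrsf4, each with an adjusted p of 0.679 by edgeR's quasi-likelihood test, and these and Eomes (-0.88) were then under an unadjusted p of 0.05, as were 3.81% of all genes on the lower side. On the higher side there were then 0 members, against 3.27% of all genes.

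The 6 members that did not peak in number 2 of both groups were Eomes, Il2ra, Il2rg, Tnfrsf4, Tnfrsf9 and Tnfrsf18. For Il2ra (control 2 and 3) and Eomes (shDdr2-labelled 2 and 3), the margin behind this was within counting error. Their place among the 6 is thus not firm. Per kilobase of exon, Il2rg, Tnfrsf4, Tnfrsf9 and Tnfrsf18 averaged above each of the 25 others. Eomes (1.505 CPM) and Il2ra (0.867 CPM) did not. Over the 6, this mean level had a median of 7.96 CPM (0.867 to 13.2). Over the 25 others, the median was 0.792 CPM (0.0620 to 5.19). The cell types that gave these transcripts were not determined.

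Between the groups, no member passed the test. By edgeR's quasi-likelihood test with Benjamini-Hochberg adjustment over 14498 genes, 0 of 31 members were called, as were 0% of all genes, and every member had an adjusted p of 1.00. At an unadjusted p under 0.05 there were also 0 members, against 0.993% of all genes on the higher side and 0.448% on the lower side. DESeq2 called 0 of 31 members and 40 genes in all, and limma called 0 of either, both with voom and on the deposited log2 scale. No member had groups without overlap, where 2.21% of all genes were wholly higher and 2.11% wholly lower in the shDdr2-labelled group. These data do not show that the members were alike in the groups, since the 95% interval for Cd8a, for example, ran from -3.24 to 2.29 on the log2 scale.

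**Figure D3:**
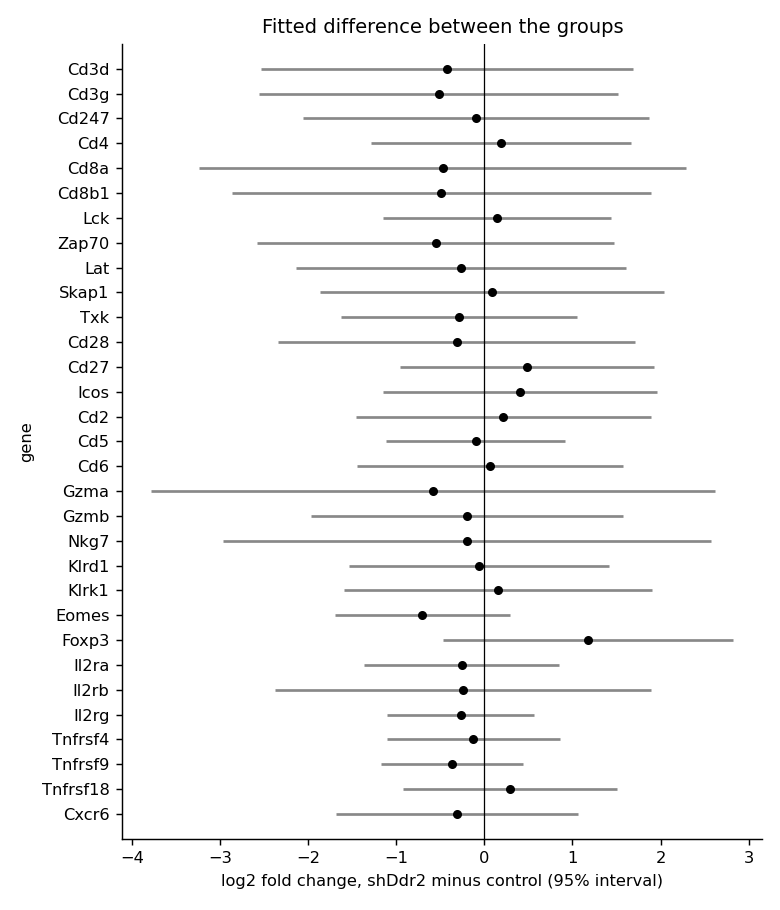
Fitted log2 fold change (points) and 95% interval (lines) of each of the 31 members, shDdr2-labelled minus control, from edgeR's quasi-likelihood fit. Every interval includes 0, and Gzma (-3.78 to 2.62) has a wide one.

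The direction of the list depended on which libraries were used. With all 6, 10 members had higher and 21 lower values in the shDdr2-labelled group, with a median log2 fold change of -0.20, where 57.1% of all genes were higher and their median was 0.04. This lean was absent in fits of log values, with 16 of 31 higher by limma voom (median 0.07) and 15 of 31 in the deposited log2 values (median -0.01). Without control 2, 26 of 31 were higher and the median was 0.67. Without shDdr2-labelled 2, 4 of 31 were higher and the median was -0.65. The median was -0.54 without control 1 (4 of 31 higher), -0.17 without control 3, -0.02 without shDdr2-labelled 1, 0.03 without shDdr2-labelled 3 (19 of 31 higher) and -0.42 without number 1 of both groups (4 of 31 higher). Gzma shows the size of this, with 1.02 without control 2 and -2.65 without shDdr2-labelled 2, and Cd8a with 0.79 and -2.58.

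**Figure D4:**
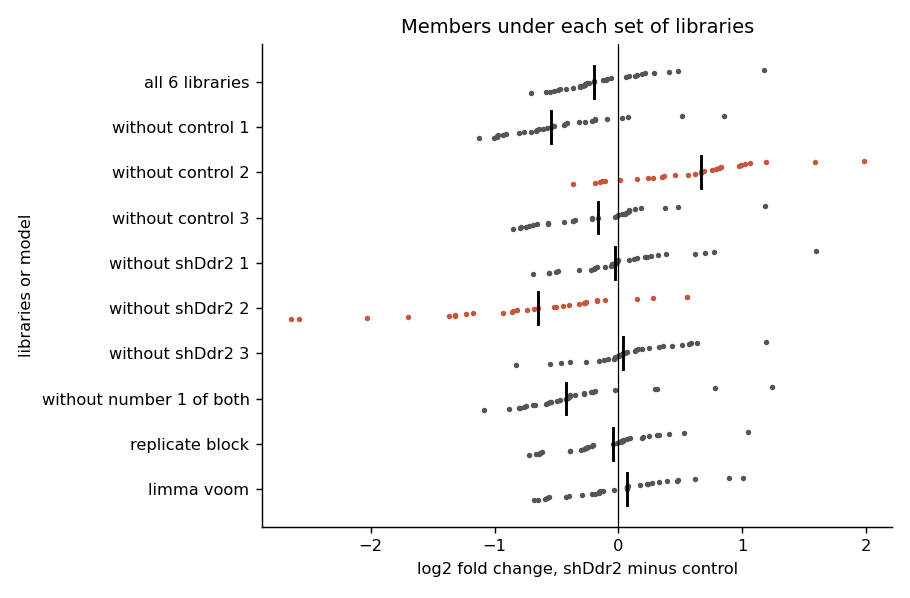
Log2 fold change of each member (points) and their median (bars), shDdr2-labelled minus control, for all 6 libraries, without each library in turn, without number 1 of both groups, with the replicate block and by limma voom; settings without a number 2 library are in red. The median is 0.67 without control 2 and -0.65 without shDdr2-labelled 2.

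The spread within a group was wide for these genes. The median member ranged 4.56-fold among control tumours and 3.40-fold among shDdr2-labelled tumours, against 1.40-fold and 1.80-fold for the median of all genes tested, most of which have higher counts. For most members the libraries of a group differed beyond counting error. In 29 of 31 the lowest and highest control libraries had separate exact Poisson intervals, against 10191 of all 14498 genes. In 27 of 31 the lowest and highest shDdr2-labelled libraries did, which is near the share of all genes (11890 of 14498). In 26 of 31 both did, against 62.0% of all genes. Txk lacked that separation in both groups, and Cd247, Cd27, Eomes and Foxp3 in 1 group.

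Ratios of 2 genes within a library do not depend on library scaling, and they were used to ask whether the balance among members differed. Cd8a to Cd4 was 0.429, 2.36 and 1.11 in control 1 to 3 and 1.07, 1.74 and 0.128 in shDdr2-labelled 1 to 3, from counts with 0.5 added. Of Cd8a and Cd4 counts together, Cd8a made up 10.8% in shDdr2-labelled 3 (exact Clopper-Pearson 95% interval 5.08 to 19.6) and 70.3% in control 2 (64.2 to 76.0). The groups overlapped, with a log2 difference of -0.75 (exact two-sided permutation p = 0.6 over 20 assignments, where 0.1 is the smallest possible, and 0.75 by sign flips within pairs).

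Foxp3 to Cd4 was 0.143, 0.156 and 0.158 in control 1 to 3 and 0.310, 0.340 and 0.235 in shDdr2-labelled 1 to 3. All 3 shDdr2-labelled tumours were above all 3 control tumours, a log2 difference of 0.94 with an exact permutation p of 0.1, the smallest that free reassignment of the 6 libraries allows, and 0.5 adjusted over the 5 ratios. With same-numbered libraries kept as pairs, the ratio was higher in 3 of 3 pairs, and the exact sign-flip permutation p was 0.25, the smallest of 8 assignments. The difference ran from 0.83 without shDdr2-labelled 2 to 1.09 without shDdr2-labelled 3. The counts behind it are small. Foxp3 made up 11.4% of the pair's counts in control 1 (3.20 to 26.7) and 25.2% in shDdr2-labelled 2 (18.1 to 33.4), and these intervals overlap. Foxp3 also overlaps Flicr and, on the opposite strand, Ppp1r3f and Ccdc22, and no source used here gives the strand setting of the counting.

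The other 3 ratios, formed with Cd3g because Cd3e is not analysed here, did not differ between the groups beyond their spread. Gzmb to Cd3g was 1.35, 1.05 and 3.00 in control 1 to 3 and 2.92, 1.69 and 1.41 in shDdr2-labelled 1 to 3 (log2 difference 0.23, exact permutation p = 0.6). Gzma to Cd3g was 0.739, 2.64 and 2.43 and then 2.04, 3.13 and 0.231 (log2 difference -0.56, exact permutation p = 0.7). The low value in shDdr2-labelled 3 rests on 4 Gzma and 19 Cd3g counts. Cd3g to Ptprc, where Ptprc encodes CD45 of all leukocytes, was 0.0268, 0.105 and 0.0493 and then 0.0423, 0.0684 and 0.0234 (log2 difference -0.35, exact permutation p = 0.7). Cd3g was thus also highest relative to CD45 in number 2 of each group.

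**Figure D5:**
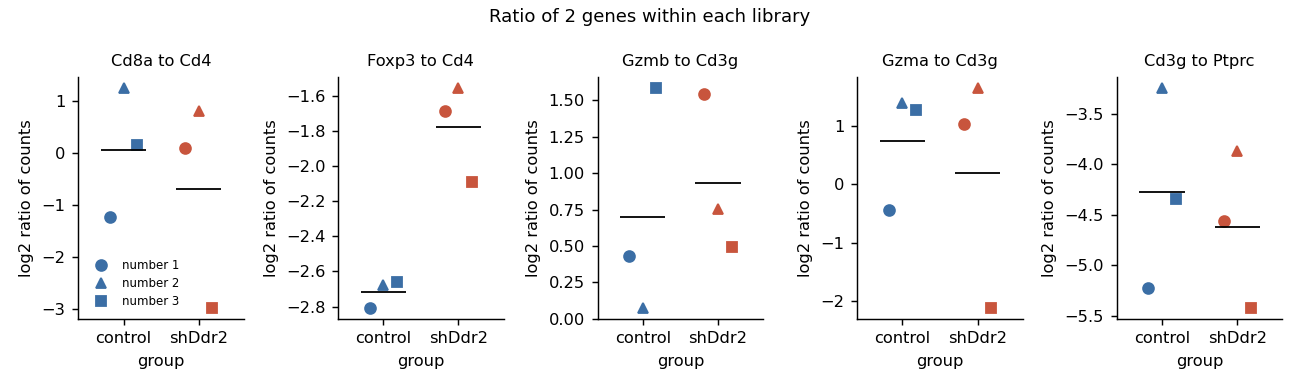
Log2 ratio of the counts of 2 genes within each library, by group, with marker shapes for replicate numbers 1 to 3 and a line at the group mean. The log2 ratio of Foxp3 to Cd4 is between -2.81 and -2.66 in control tumours and between -2.09 and -1.56 in shDdr2-labelled ones, and the other 4 ratios overlap between the groups.

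Markers of other leukocytes moved with part of this pattern, and their part in it was not tested. Ptprc was at 23.1, 53.0 and 31.2 CPM in control 1 to 3 and at 21.3, 48.8 and 47.9 CPM in shDdr2-labelled 1 to 3. In shDdr2-labelled 3 it was thus near the level of shDdr2-labelled 2, whereas Cd3g, Cd8a, Gzma and Zap70 were low in shDdr2-labelled 3. The members were not alike in this. Cd4, Cd27, Il2ra, Il2rg, Eomes, Tnfrsf4, Tnfrsf9 and Tnfrsf18 were near or above their shDdr2-labelled 2 level there. Of 10 pan-leukocyte genes, 7 peaked in number 2 of both groups, as did 16 of 33 tested genes of a second T and NK list, 4 of 6 dendritic cell genes, 3 of 13 macrophage and monocyte genes and 1 of 6 B and plasma cell genes. The summed level of the macrophage and monocyte list ranged from 623 to 985 CPM in control tumours and from 706 to 1121 CPM in the others, with its highest value in shDdr2-labelled 3. That of the 3 detected T cell receptor complex genes ranged from 1.02 to 11.4 CPM and from 2.18 to 6.48 CPM, with its highest values in number 2 of each group.

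The second list of 46 T and NK cell genes, of which 37 were in the table and 33 were tested, gave 15 higher and 18 lower with a median log2 fold change of -0.04 and 0 calls. Prkcq, the protein kinase C of T cell receptor signalling, was at 0.0539, 2.27 and 1.13 CPM in control 1 to 3 and at 0.722, 3.07 and 0.803 CPM in shDdr2-labelled 1 to 3. Its peaks were in number 2 of each group, as for 16 of the 33 tested genes of this list. Prkcq was named after its values were seen.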

How the data were processed

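RNA of 6 tumours was sequenced after poly-T selection, per the labels' protocols. Tools in the submitters' processing notes are Bowtie2 2.1.0, RSEM 1.2.31 and limma, with build GRCm38.p5 and no roles. The authors deposited whole-number counts per Entrez gene, possibly rounded estimates, and log2 values. Checked against the counts, the latter are log2 of 1 plus a count scaled by a library-wide factor. RefSeq (GRCm38.p6) gave symbols for 14876 of 15295 Entrez numbers. Positions and exon lengths are from GENCODE M21 on GRCm38. In that annotation 15 of 31 members overlap another gene, 6 a protein-coding one (Cd247, Cd27, Foxp3, Il2rg, Tnfrsf9 and Cxcr6), and without strand their counts may hold reads of both.

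Counts were filtered with filterByExpr, scaled by TMM and tested with edgeR 4.0.16 (quasi-likelihood F test, robust, two-sided, adjusted over 14498 genes, threshold 0.05) in R 4.3.3, with DESeq2 1.42.0 and limma 3.58.1 as alternatives. The common biological coefficient of variation was 35.3%. The script was tested on simulated data. Members, lists and tests were chosen with earlier results of these data known. The genes named are the members, Ddr2, Ptprc and, of each other list, the tested gene with the smallest p and that with the highest mean CPM, of which 1 is not reported here. Klrb1c, Klrg1 and Prkcq were added after their values were seen. Ratios planned with Cd3e used Cd3g, and that of Ncr1 was left out.

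Replicate numbers come from the titles. Across genes, deviations from the group means of same-numbered libraries correlated with r of 0.299, 0.267 and 0.253, and control 3 with shDdr2-labelled 2 at 0.254. All same-numbered pairs exceeded 0.1, which was taken as pairing, but so did control 3 with shDdr2-labelled 2. The cut thus does not single out same-numbered libraries, and the paired fit and sign flips rest on an assumed pairing. No libraries of a group agreed within sampling noise (chi-square over its degrees of freedom 24.8 to 229).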

Additional observations from a re-analysis of the deposited data

How the results depend on the processing

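No member passed in any of the 15 alternatives run (23 members tested under the stricter filter, 31 in the others). Over all genes the calls were 0 by edgeR in every alternative and 40 by DESeq2, where the cause was not tested. Members with higher values numbered 10, against 16 by limma voom, 4 without number 1 of both groups, and from 4 to 26 when 1 library was left out. The paired fit with the replicate block gave 14 higher and 17 lower members with a median of -0.04, and it changed no call. For the ratios, sign flips over the 3 pairs gave exact permutation p-values from 0.25, the smallest possible, to 1, so no paired test of a ratio could pass 0.05. Depth limits the members: 8 of 31 had under 1 CPM in 4 or more libraries and were left out by the stricter filter.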

Other observations

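Among the other cell type lists, B and plasma cell transcripts peaked in shDdr2-labelled 2 for 5 of 6 tested genes, but in control 2 for 2 of 6 among control tumours. Igkc, the kappa light chain constant region, was at 0.431, 14.04 and 57.5 CPM in control 1 to 3 and at 8.59, 104.9 and 27.9 CPM in shDdr2-labelled 1 to 3, so that control 3 was the highest control tumour. Mzb1, a chaperone of antibody-secreting cells, was at 0.0539, 0.597 and 0.691 CPM and at 0.433, 1.71 and 0.172 CPM, with 10 and 11 counts in control 2 and 3. Its lowest shDdr2-labelled value was in number 3, where that of Igkc was in number 1.

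Lyz2, lysozyme of macrophages and neutrophils, averaged 280 ± 10.8 CPM in the control group and 414 ± 39.99 CPM in the shDdr2-labelled group (SD, n = 3 each). The groups did not overlap, and the log2 fold change was 0.56 (SE 0.19; adjusted edgeR p 1.00). Of the 10 pan-leukocyte genes 7 were higher, with a median log2 fold change of 0.16, while the most abundant, Laptm5, and the one with the lowest p, Cd53, differed by -0.10 (SE 0.53; 0.33 without shDdr2-labelled 1) and -0.27 (SE 0.26). Itgax and Cd209a of the dendritic cell list differed by 0.17 (SE 0.38) and 0.52 (SE 0.74). S100a9 and Mmp9 of the neutrophil list differed by -1.54 (SE 0.50) and -0.78 (SE 0.65), and Fcer1a and Kit of the mast cell list by -1.20 (SE 0.74) and -0.19 (SE 0.42). Among genes of other tissues, Cldn4 and Krt5 of the epithelial list differed by -0.73 (SE 0.26) and 0.02 (SE 0.25), Fap and Col3a1 of the fibroblast list by 0.55 (SE 0.46) and 0.40 (SE 0.61), and Alas2 and Hba-a2 of the erythrocyte list by -2.56 (SE 0.98) and -2.30 (SE 0.96). Control 1 was the highest library of both erythrocyte genes, at 22.5 and 270.7 CPM, and without it they differed by -0.45 and -0.25. S100a9 then differed by -1.001 and Cldn4 by -0.43. Gata3, which is in the second T and NK list and is also a urothelial factor, was at 132 ± 19.1 and 124 ± 23.8 CPM. None of these passed the edgeR test after adjustment.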
